A study of Mus musculus with 21 samples.

Results

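Of the 6781 Foxa1 peaks mapped by chromatin immunoprecipitation and sequencing (ChIP-seq) 48 hours after infection, 1619 (23.9%, 95% Wilson interval 22.9% to 24.9%) overlapped no peak of any other Foxa list of the series. They were chosen by pooling 6 Foxa peak lists, merging peaks that share 1 bp or more, and keeping each merged region with a 48-hour Foxa1 peak and none from the other 5 lists. The merged regions number 29339 in all, so the 48-hour-only Foxa1 sites are 5.52% of them, and each is exactly 1 deposited Foxa1 peak. The lists that had to be empty were Foxa2 and Foxa3 at 48 hours and Foxa1, Foxa2 and Foxa3 in the established cells. Intervals here and below reflect counting error alone, and neighbouring peaks are not independent of each other.

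The cells were mouse embryonic fibroblasts of strain C57BL/6, prepared from embryos at 13.5 days post coitum and infected with retroviruses. Each of 3 lines received Hnf4a (Hnf4alpha) together with Foxa1, Foxa2 or Foxa3, so Hnf4a was added in every group used here. Cells were taken 48 hours after infection or as hepatocyte-like cells (iHep) derived from such fibroblasts. Both stages have 1 Foxa and 1 Hnf4a library per line, which gives no replicate spread and no p-value. A control without a Foxa factor was not analysed here, and the read depth of the libraries is unknown. Foxa1 was mapped only in the Foxa1 line, and likewise for Foxa2 and Foxa3, so factor, antibody and line cannot be told apart. The sample titles also carry a code, which differs between the 48-hour Foxa1 library and every other Foxa library. The titles do not give its meaning, and it cannot be told apart from stage and line. No expression data were used here, so the hepatocyte-like identity of the iHep cells was not checked against markers.

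Foxa1, Foxa2 and Foxa3 are forkhead transcription factors. The forkhead domain resembles linker histone in shape and can bind its DNA motif on nucleosomes, which is why these proteins are described as pioneer factors that reach closed chromatin. In liver development Foxa proteins bind enhancers of hepatocyte genes, often beside Hnf4a, a nuclear receptor that maintains the hepatocyte programme. Gene positions and site sequences on the build of the peak lists (mm9) were not analysed here, so sites are given by their mm9 position, with the first base of a chromosome counted as 1.

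The name of the group rests on a strict rule. A further 1384 Foxa1 peaks overlapped the 48-hour Foxa2 list and no other, so they too had no Foxa peak in iHep cells but are not counted among the 48-hour-only Foxa1 sites. The iHep Foxa2 list alone removed 946 Foxa1 peaks, and the iHep Foxa1 list alone removed 115. The Foxa3 lists removed almost none by themselves, 1 for 48 hours and 3 for iHep. Acting alone, the Foxa2 lists thus removed the most peaks. Counting also peaks that overlapped further lists, the 48-hour Foxa2 list overlapped 3106 Foxa1 peaks (45.8%). The iHep Foxa2 list overlapped 3580 (52.8%) and the iHep Foxa1 list 2087 (30.8%). Near the limit of 1 bp, 30 of the 1619 sites had another Foxa peak within 500 bp, and 5 within 100 bp. Just inside the limit were sites on chromosome 6 at 94175635 to 94176011, with a gap of 24 bp to an iHep Foxa2 peak, and on chromosome 15 at 34955596 to 34955972, with 31 bp to a 48-hour Foxa2 peak. The next was on chromosome 16 at 14162553 to 14162900, with 53 bp to an iHep Foxa3 peak. Their scores were 10.7, 10.4 and 15.2. Just outside were Foxa1 peaks on chromosome 6 at 72185391 to 72185738, overlapping an iHep Foxa3 peak by 3 bp, and on chromosome 12 at 86639286 to 86639953, overlapping a 48-hour Foxa2 peak by 18 bp. The next was on chromosome 5 at 149994810 to 149995135, overlapping an iHep Foxa3 peak by 34 bp. Those scored 10.7, 8.83 and 11.8.

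The 48-hour-only Foxa1 sites were mostly weak peaks of their list. Score here is the number the authors deposited with each peak, for which the labels and files give no formula, and it was compared within the 48-hour Foxa1 list alone. The median score of the sites was 13.6, with quartiles of 11.2 and 17.6 and a range of 5.74 to 93.6. The 5162 other Foxa1 peaks had a median of 20.8, quartiles of 14.5 and 33.8, and a highest score of 957. Only 398 of the 1619 sites (24.6%) scored above the median of the whole list, 18.3. Since score and membership come from the same list, these values describe the group and test nothing.

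The share of Foxa1 peaks that were 48-hour-only fell along the score ranking. The list was divided into 10 score bins of 678 or 679 peaks, numbered from the lowest. In bin 1 294 of 679 peaks (43.3%, 39.6% to 47.1%) were such sites, and in bin 2 293 of 678 (43.2%). The share was 25.1% in bin 5, 12.4% in bin 8 and 4.87% in bin 9. In bin 10, with scores from 49.7 upwards, it was 10 of 678 (1.47%, 0.803% to 2.69%). Grouped by how many of the other 5 Foxa lists held the peak, the median score rose from 13.6 with 0 lists to 16.5 with 1, 21.0 with 2, 41.2 with 3 and 66.6 with 4, the last from 60 peaks. The 9 peaks held by all lists had a median of 25.4 and broke the order.

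**Figure D1:**
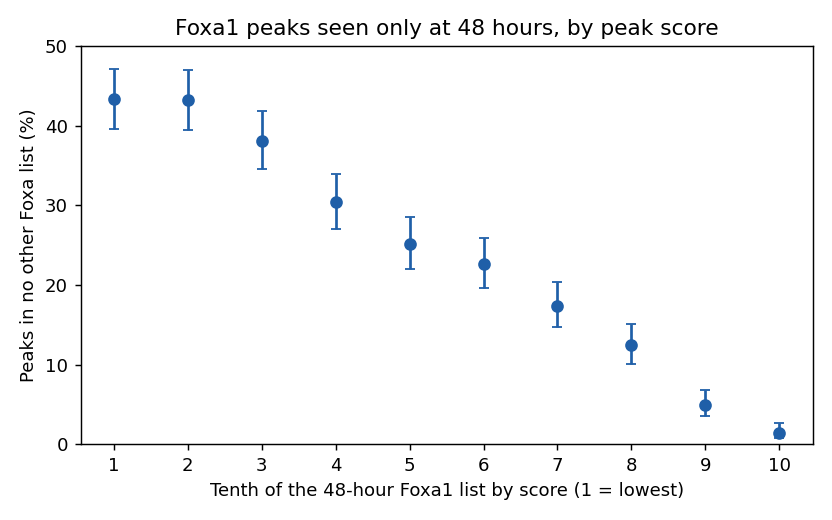
Share of 48-hour Foxa1 peaks found in no other Foxa list (vertical axis, percent) in each of 10 score bins of the list (horizontal axis, 1 = lowest); points are shares and bars 95% Wilson intervals. The share falls from 43.3% in the lowest bin to 1.47% in the highest.

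The 10 highest scoring sites lay on 7 chromosomes, and 7 of them were farther from any Foxa peak of another list than the median site, at 32.7 kb. The strongest, on chromosome 7 at 104095770 to 104096322, scored 93.6 and ranked 192 in the Foxa1 list. Its nearest other Foxa peak, from the 48-hour Foxa2 list, was 47.7 kb away, and the nearest iHep Foxa1 peak 150 kb. A site on chromosome 3 at 151491020 to 151491577 scored 74.1 and had no other Foxa peak within 291 kb. On chromosome 15, at 52322175 to 52322958, a site of 784 bp scored 69.7 with a gap of 108 kb. The most remote of the 10 lay on chromosome 6 at 102539136 to 102539746 and scored 67.0, with a gap of 434 kb.

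The other 6 of these sites had gaps of 5.82 to 255 kb. The site on chromosome 4 at 63624432 to 63624991 (score 66.5) was 22.2 kb from an iHep Foxa2 peak, and that on chromosome 3 at 113363479 to 113363981 (score 59.0) was 5.82 kb from one. A site on chromosome 14 at 98922404 to 98923188 (score 52.9) had a 48-hour Foxa2 peak at 9.86 kb. The remaining sites were on chromosome 6 at 136043715 to 136044277, on chromosome 17 at 45169225 to 45169781, and again on chromosome 7, at 98254880 to 98255448, with gaps of 255 kb, 54.2 kb and 181 kb. Of all 10, the last alone overlapped an Hnf4a peak, in the 48-hour list of the Foxa1 line.

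The sites were narrower than the rest of the list. Their median width was 384 bp (quartiles 345 and 444 bp) against 458 bp (385 and 545 bp) for the other Foxa1 peaks. With the list divided into 4 score groups, numbered from the lowest, the difference was smaller. The medians were 349 and 361 bp in group 1, 385 and 394 bp in group 2, 446 and 459 bp in group 3, and 518 and 562 bp in group 4. Width rose with score in both sets of peaks. Scores within group 4 were not alike, with medians of 33.5 for the sites and 44.8 for the other peaks. The shortest sites measured 326 bp, which is also the shortest width in the whole list. The 3 widest lay on chromosome 10 at 8195388 to 8196397 (1010 bp, score 18.3), on chromosome 3 at 157095085 to 157095952 (868 bp, score 20.8) and on chromosome 11 at 5070632 to 5071447 (816 bp, score 15.5). All of these were 13960 bp or more from any other Foxa list and overlapped no Hnf4a peak. The widest of the other Foxa1 peaks reached 6985 bp.

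All 20 chromosomes with a Foxa1 peak carried 48-hour-only sites, in near proportion to the list. Chromosome 6 held the most, with 121 sites among 439 Foxa1 peaks (27.6%, 23.6% to 31.9%). Chromosome 1 followed with 117 among 508 (23.0%), and chromosomes 2 and 4 had 116 each. For 18 chromosomes the interval of the share included the 23.9% of the whole list. The exceptions were chromosome 3, where 95 of 512 Foxa1 peaks (18.6%, 15.4% to 22.2%) were 48-hour-only, and chromosome 4, where 116 of 411 were (28.2%, 24.1% to 32.8%). With 20 intervals at 95% some may miss the common value, and no difference between chromosomes was tested. Chromosome X had the highest share, 33 of 111 (29.7%, 22% to 38.8%), on few peaks.

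**Figure D2:**
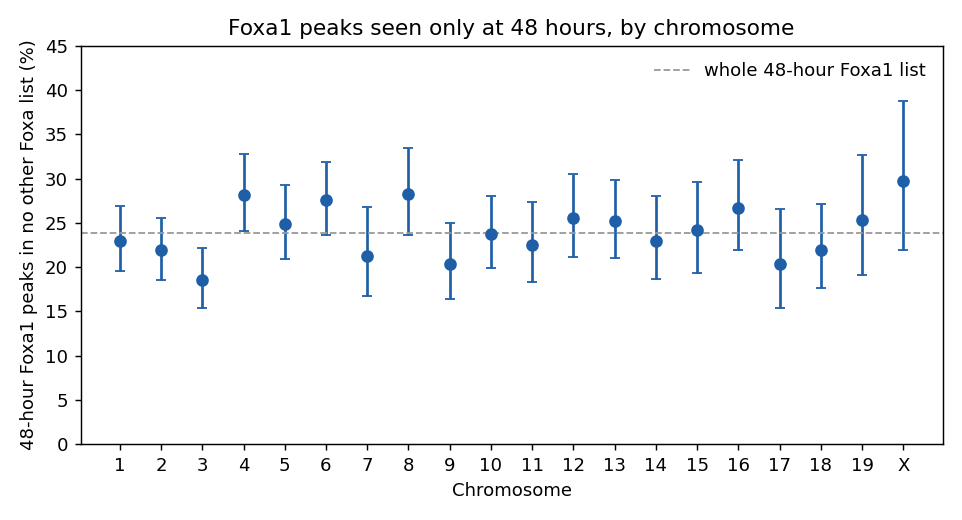
Share of the 48-hour Foxa1 peaks of each chromosome that were in no other Foxa list (vertical axis, percent), with 95% Wilson intervals as bars; the dashed line is the share in the whole list, 23.9%. Chromosome 3 (18.6%) lies below the line and chromosome 4 (28.2%) above it, and the other intervals cross it.

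Away from their own position, the 48-hour-only Foxa1 sites had fewer Foxa peaks of other lists around them than the rest of the list. Distance was measured to the nearest peak of another list that does not overlap the Foxa1 peak. The rule fixes that every site has a gap. It also used these same lists, and each other Foxa1 peak overlaps a peak of 1 or more of them. The distances are thus a description, and their contrast tests nothing. The median gap was 32.7 kb (quartiles 10.6 and 88.6 kb) for the sites and 18.1 kb (5.52 and 48.2 kb) for the other Foxa1 peaks. Within 1 kb lay 58 of the 1619 sites (3.58%), beside 6.62% of all Foxa1 peaks. Within 10 kb lay 384 sites (23.7%, 21.7% to 25.9%), beside 32.6% of the whole list and 35.4% (34.1% to 36.7%) of the other Foxa1 peaks. Within 100 kb lay 1259 sites (77.8%), beside 86.4% of the list. With the Foxa lists reduced to the 3435 highest scoring peaks each, the rule was applied anew. It gave 857 sites, which are not the same set as the 1619. Of these 13.4% (11.3% to 15.9%) lay within 10 kb of another Foxa list, beside 21.0% (19.5% to 22.6%) of the other Foxa1 peaks kept.

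The difference was also present within the 4 score groups, though in group 4 the sites had a lower median score than the other Foxa1 peaks. In score group 1 23.6% of the sites (20.6% to 26.8%) and 37.2% of the other Foxa1 peaks (34.2% to 40.3%) lay within 10 kb of another Foxa list. In group 4 the values were 22.7% (15.2% to 32.5%, from 88 sites) and 36.2% (33.9% to 38.6%). The values were 25.8% and 36.5% in group 2 and 21.0% and 32.1% in group 3. Because the rule used the same lists, these shares describe the sites and test nothing.

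**Figure D3:**
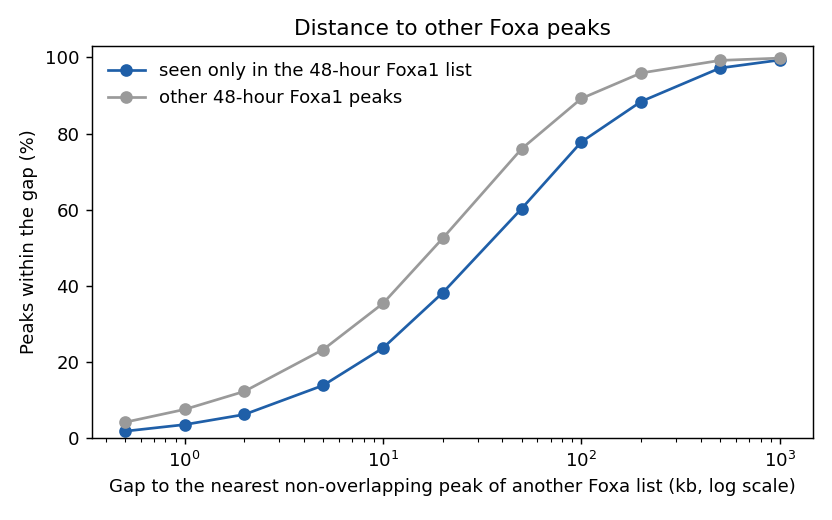
Share of peaks (vertical axis, percent) whose nearest non-overlapping peak of another Foxa list lies within a given gap (horizontal axis, kb, log scale); blue, 1619 Foxa1 sites seen only at 48 hours, grey, 5162 other 48-hour Foxa1 peaks. The blue curve lies below the grey at each gap drawn, with 23.7% against 35.4% within 10 kb.

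For each of the other lists taken alone, the sites also had fewer peaks nearby. For iHep Foxa2, 192 sites (11.9%, 10.4% to 13.5%) had an iHep Foxa2 peak within 10 kb, beside 18.6% of all Foxa1 peaks, and the median gap was 91.9 kb against 43.7 kb for the other peaks. For 48-hour Foxa2 it was 177 sites (10.9%, 9.50% to 12.5%) beside 13.9% of the list, with median gaps of 96.1 and 69.5 kb. For iHep Foxa1 it was 74 sites (4.57%) beside 6.98%, with gaps of 263 and 173 kb. The Foxa3 lists gave 71 sites (4.39%) beside 5.50% at 48 hours and 87 sites (5.37%) beside 7.61% in iHep cells. For 48-hour Foxa3 the intervals overlapped, with 3.49% to 5.50% for the sites and 5.24% to 6.52% for the other Foxa1 peaks. The lists differ in length, from 3435 to 12661 peaks, so gaps to different lists are not comparable with each other.

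A few sites stood entirely apart. No Foxa peak of another list was found within 1000 kb of 11 sites (0.679%), and 99.7% of all Foxa1 peaks had one within that distance. On chromosome X it was 4 of 33 sites and 3 of 78 other Foxa1 peaks, and on the autosomes 7 of 1586 and 7 of 5084. The 3 most remote were all on that chromosome, at 30517233 to 30517568, 114826449 to 114826794 and 3472787 to 3473140, with gaps of 2999, 2588 and 2503 kb. Their scores were low, at 12.5, 15.2 and 9.85. Gaps on chromosome X were wide for other Foxa1 peaks too, with a median of 49.7 kb for 78 peaks there against 17.8 kb on the autosomes. For the sites the same medians were 105 and 32.5 kb.

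Few sites lay near another such site, though a larger share of them did than of the other Foxa1 peaks. Within 10 kb of another 48-hour Foxa1 peak of any kind lay 210 sites (13.0%, 11.4% to 14.7%), beside 14.8% of the whole list. Within 10 kb of another 48-hour-only site lay 82 (5.06%, 4.10% to 6.24%), beside 3.32% of all Foxa1 peaks and 2.77% (2.36% to 3.25%) of the others. These 82 sites formed 40 runs, of which 2 had 3 members and the rest were pairs. The longest run of Foxa1 peaks of any kind held 12 peaks and no 48-hour-only site.

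Both runs of 3 lay close together on chromosome 6 and were alike in size. The first spanned 47615796 to 47629102 (13307 bp) and the second 47687683 to 47700979 (13297 bp), 71887 bp further on. The second run resembled the first in layout, except for its middle peak. The 3 peaks were shifted by 71960, 70389 and 71833 bp from centre to centre. Their scores were 10.6, 10.6 and 9.43 in the first run, and in the second the highest was 13.2, all below the list median. Within 200 kb of the runs there were 7 Foxa1 peaks, all of them 48-hour-only sites, while the other Foxa lists had 2 to 10 peaks at other positions there. The iHep Hnf4a lists were dense in the same window, with 20, 30 and 16 peaks in the Foxa1, Foxa2 and Foxa3 lines, against 3, 3 and 0 at 48 hours. Whether these stretches are copies of one another in the genome was not tested. Of the pairs, the one with the highest summed score lay on chromosome 3 at 9294854 to 9302156, with scores of 29.2 and 30.3, and no Hnf4a peak within 20 kb.

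Hnf4a was not used to choose the sites, and its 6 lists show whether the partner factor was found there. The rule did use the iHep Foxa lists of the same lines, and so excluded every Foxa1 peak with an iHep Foxa peak. Contrasts in iHep Hnf4a with the other Foxa1 peaks thus describe the sites and test nothing. Few 48-hour-only Foxa1 sites carried Hnf4a at either stage. At 1 or more Hnf4a lists were 22 of the 1619 sites (1.36%, 0.899% to 2.05%), beside 5.50% of all 48-hour Foxa1 peaks and 6.80% (6.14% to 7.52%) of the other 5162. Of these 22 sites, 15 met Hnf4a in iHep lists alone, 2 in 48-hour lists alone and 5 at both stages. Their median Foxa1 score was 12.6, close to the 13.6 of the sites without Hnf4a, and their median width was the same, 384 bp.

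In iHep cells the sites were at Hnf4a peaks less often than the rest of the Foxa1 list, in every line. The iHep Hnf4a list of the Foxa1 line touched 12 sites (0.741%, 0.425% to 1.29%), beside 3.01% of all Foxa1 peaks. The Foxa2 line's touched 16 (0.988%, 0.609% to 1.60%), beside 4.10%. The Foxa3 line's touched 6 (0.371%, 0.170% to 0.806%), beside 1.61%. Of the 5162 other Foxa1 peaks 3.72% (3.24% to 4.27%) met the list of the Foxa1 line, 5.08% (4.51% to 5.71%) that of the Foxa2 line and 2.0% (1.65% to 2.41%) that of the Foxa3 line. In each line the interval was apart from that of the sites. In any iHep Hnf4a list were 20 sites (1.24%, 0.801% to 1.90%), beside 5.35% of the whole list.

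At 48 hours Hnf4a peaks were few at all Foxa1 peaks, and the intervals of sites and other peaks overlapped. The 48-hour Hnf4a list of the Foxa1 line, from the same cells as the sites, touched 6 of them (0.371%, 0.170% to 0.806%), beside 0.782% of the whole Foxa1 list and 0.910% (0.685% to 1.21%) of the other peaks. The lists of the Foxa2 and Foxa3 lines touched 2 sites each (0.124%, 0.0339% to 0.449%), beside 0.442% and 0.369%. In any 48-hour Hnf4a list were 7 sites (0.432%), beside 0.900%. Hnf4a of the sites' own line at both stages was found at 3 sites (0.185%), beside 0.413%.

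**Figure D4:**
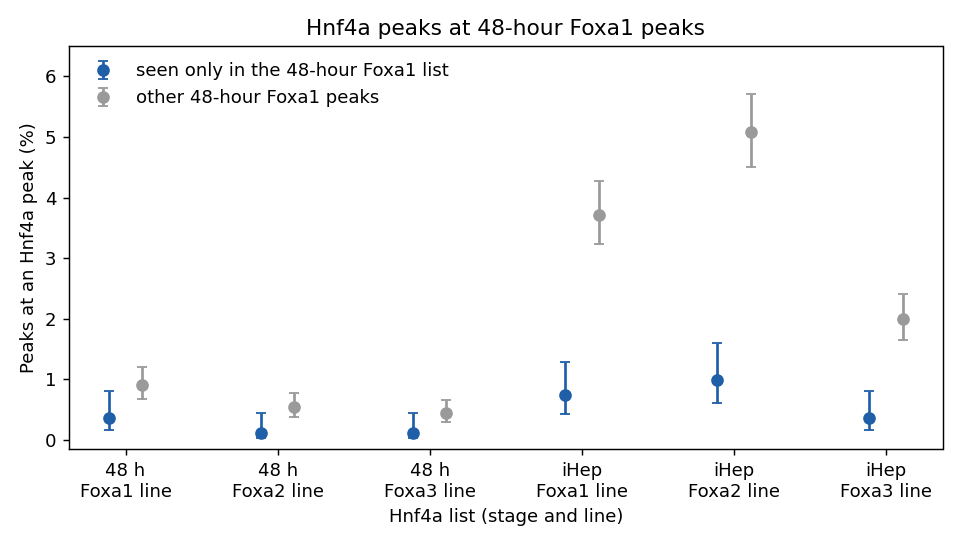
Share of peaks that overlap an Hnf4a peak (vertical axis, percent) for each of 6 Hnf4a lists (horizontal axis, stage and line), with 95% Wilson intervals as bars; blue, 1619 Foxa1 sites seen only at 48 hours, grey, 5162 other 48-hour Foxa1 peaks. In iHep cells the blue shares are 0.741%, 0.988% and 0.371% and the grey ones 3.72%, 5.08% and 2.0%.

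The low share of iHep Hnf4a at the sites held within the score groups. Scores were not alike in group 4, with medians of 33.5 for the sites and 44.8 for the other peaks. In score group 1 12 of 725 sites (1.66%, 0.949% to 2.87%) and 58 of 971 other peaks (5.97%, 4.65% to 7.64%) were at an iHep Hnf4a peak of some line. In group 2 it was 6 of 496 (1.21%) and 59 of 1199 (4.92%), and in group 3 2 of 310 (0.645%) and 85 of 1385 (6.14%). In group 4 it was 0 of 88 sites, with an upper bound of 4.18%, and 141 of 1607 other peaks (8.77%, 7.49% to 10.3%). The intervals of sites and other peaks did not meet in any of the 4 groups. By the rule, however, no site has an iHep Foxa peak, while 3580 of all 6781 Foxa1 peaks overlapped the iHep Foxa2 list. The shares therefore describe the sites and test nothing. Other ways in which the groups may differ were not tested.

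**Figure D5:**
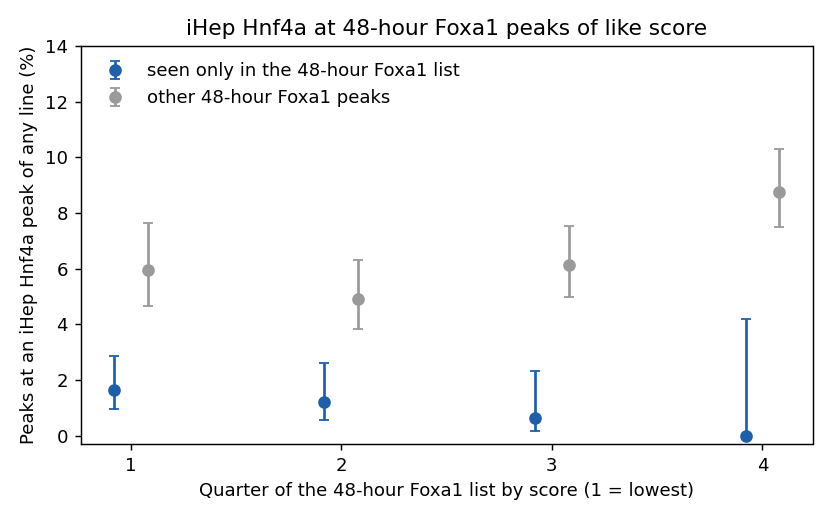
Share of peaks at an iHep Hnf4a peak of any line (vertical axis, percent) in each of 4 score groups of the 48-hour Foxa1 list (horizontal axis, 1 = lowest), with 95% Wilson intervals as bars; blue, Foxa1 sites seen only at 48 hours, grey, other 48-hour Foxa1 peaks. Blue runs from 1.66% to 0% and grey from 4.92% to 8.77%.

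Set beside other classes of 48-hour Foxa1 peaks, the sites had a share of iHep Hnf4a near that of peaks held by the 48-hour Foxa2 list alone. Of those 1384 peaks 18 (1.30%, 0.824% to 2.05%) were at an iHep Hnf4a peak, against 1.24% of the 48-hour-only sites, although their median score was 18.4. Among the 946 Foxa1 peaks held by the iHep Foxa2 list alone it was 27 (2.85%, 1.97% to 4.12%) at a median score of 15.0. Among the 115 held by the iHep Foxa1 list alone it was 8 (6.96%, 3.57% to 13.1%). The 968 peaks held by both iHep lists and no others had the highest share of these classes, 13.9% (11.9% to 16.3%), at a median score of 20.2. The 880 peaks held by these and the 48-hour Foxa2 list scored far higher, with a median of 41.4, yet 9.89% (8.09% to 12.0%) were at iHep Hnf4a. Of the classes given here, those without an iHep Foxa peak had the lowest shares.

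Low shares were also found for sites that the other Foxa proteins had alone at 48 hours. For Foxa2, 3146 of 6827 peaks (46.1%) were in no other Foxa list, and 36 of them (1.14%, 0.828% to 1.58%) met an iHep Hnf4a peak, beside 3.62% of the whole 48-hour Foxa2 list. For Foxa3 it was 1359 of 5690 peaks (23.9%), and 29 of them (2.13%, 1.49% to 3.05%), beside 9.02% of its list. The Foxa1, Foxa2 and Foxa3 sites come from different libraries, and no difference between them was tested.

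Within 100 kb iHep Hnf4a peaks were also fewer. These counts include Hnf4a peaks that overlap the Foxa1 peak itself, so the lower share at the sites is part of them. Whether the surroundings alone differed was not tested. An iHep Hnf4a peak of the Foxa1 line lay within 100 kb of 212 sites (13.1%, 11.5% to 14.8%), beside 18.2% of all Foxa1 peaks. For the Foxa2 and Foxa3 lines it was 309 (19.1%, 17.2% to 21.1%) beside 24.9% and 205 (12.7%, 11.1% to 14.4%) beside 17.7%. At 48 hours the sites did not stand apart, with 56 (3.46%) beside 3.45%, 45 (2.78%) beside 3.02% and 34 (2.1%) beside 2.26% for the same lines.

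Hnf4a of 4 or more lists was found at 3 sites, with Foxa1 scores of 7.24, 22.2 and 13.7. The site on chromosome 10 at 7236147 to 7236889 (743 bp, score 7.24, rank 6751 of 6781) alone overlapped all 6 Hnf4a lists. It lies in a dense block of 48-hour Hnf4a peaks at 7229418 to 7236934, which also holds the site at 7231563 to 7231944. Its 48-hour Hnf4a peak of the Foxa1 line scored 18.2 and ranked 4 of 418, and its iHep Hnf4a peak of the Foxa2 line was 1100 bp wide with a score of 18.1. Of the 5 Foxa1 peaks in this block 2 were 48-hour-only. In like blocks on chromosomes 9 and 2 it was 0 of 12 and 0 of 2, beside 23.9% of the whole Foxa1 list. These counts are small, and no difference was tested.

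Outside the chromosome 10 block 2 sites met 4 Hnf4a lists. The first, on chromosome 12 at 9890201 to 9890617 (score 22.2), overlapped Hnf4a peaks of all 3 lines in iHep cells, with scores of 11, 22.6 and 9.04, and a 48-hour peak of the Foxa1 line scoring 7.74. A 48-hour Foxa2 peak lay 915 bp from it. The other was on chromosome 8 at 19926147 to 19926770 (score 13.7). It met Hnf4a of the Foxa1 line at both stages, and that of the Foxa2 line likewise. The 48-hour Hnf4a peak scored 5.92 in the Foxa1 line (rank 390 of 418). That of the Foxa2 line scored 7.78 (rank 277 of 453) and overlapped the site by 17 bp. The site had a neighbour at 19925261 to 19925595, 551 bp away. That neighbour met a 48-hour Hnf4a peak of the Foxa3 line and an iHep one of the Foxa2 line.

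Hnf4a of all 3 iHep lines, and of none at 48 hours, was found at 2 sites. That on chromosome 16 at 23511398 to 23511723 (score 11.9) had iHep Hnf4a scores of 17.3, 10.5 and 11.4 in the Foxa1, Foxa2 and Foxa3 lines, and the first is the highest iHep Hnf4a score of the Foxa1 line at any 48-hour-only site, rank 248 of 1580. The site on chromosome 15 at 57573351 to 57573747 (score 11.7) had iHep scores of 12.5, 11 and 9.71. Its nearest Foxa peak of another list was 75.7 kb away, so Hnf4a of 3 iHep lines stood there without any iHep Foxa peak near it.

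Sites that met 2 Hnf4a lists included chromosome 5 at 38508410 to 38508735 (score 10.7), where iHep Hnf4a of the Foxa1 line scored 12.5 and that of the Foxa2 line 24.1. On chromosome 9 at 75775387 to 75775758 (score 10.7) the same lines had 8.53 and 12.1, and on chromosome 19 at 11310637 to 11311003 (score 14.6) they had 13.3 and 21.9. A site on chromosome 16 at 25877461 to 25877847 (score 15.0) met Hnf4a of the Foxa1 line at 48 hours (8.34) and of the Foxa2 line in iHep cells (9.67). The highest scoring iHep Hnf4a peak of the Foxa2 line at any of the sites, at 40.8 with rank 82 of 2485, was 1537 bp wide and covered the middle site of the second chromosome 6 run, at 47694886 to 47695293. In the first of these runs the site at 47628654 to 47629102 met the highest scoring iHep Hnf4a peak of the Foxa3 line at any site, 11.7 with rank 832 of 2506.

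Sites with Hnf4a also lay nearer to Foxa peaks of other lists. Of the 22, 9 (40.9%, 23.3% to 61.3%) had another Foxa list within 2 kb, against 92 of the 1597 others (5.76%, 4.72% to 7.01%). The median gaps were 11.6 and 33.1 kb. This split was made after the values were seen, on few sites, of which 2 share the chromosome 10 block, 2 the chromosome 6 runs and 2 are neighbours on chromosome 8.

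Seen from the Hnf4a lists, the sites took a small part of the peaks that met Foxa1, beside 23.9% of the 48-hour Foxa1 peaks. Of 1580 iHep Hnf4a peaks of the Foxa1 line, 206 (13.0%) lay at a 48-hour Foxa1 peak, 13 of them (0.823% of the list) at a 48-hour-only site. In the Foxa2 and Foxa3 lines it was 16 of 268 and 6 of 118. At 48 hours it was 8 of 158, 3 of 130 and 4 of 123 in the order Foxa1, Foxa2 and Foxa3 line. Several of these Hnf4a peaks can share 1 Foxa1 peak. Counted by Foxa1 peak it was 6 of 53, 2 of 30 and 2 of 25 in the same order. The iHep Hnf4a peaks at the sites were close in score to the rest of their lists, with a median score of 10.4 against 11.3 elsewhere for the Foxa1 line, 13.2 against 13.0 for the Foxa2 line, and 10.4 against 10.2 for the Foxa3 line. At 48 hours the medians were 8.04 against 7.80 for the Foxa1 line, 7.12 against 8.29 for the Foxa2 line and 7.28 against 19.2 for the Foxa3 line, from 8, 3 and 4 peaks at the sites.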

How the data were processed

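The deposited files are 13 peak lists, 1 per sample, with a position, a name and a score per peak. No source used here gives the formula of the score the authors deposited. Build mm9 and the tools bedtools 2.16.2, MACS2 2.1.0 and BWA 0.6.2 come, without roles, from the submitters' processing notes. The 8 inputs were not analysed here.

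Groups follow the sample titles. The del2 sample is at 48 hours by title and iHep by its stage label. The sites and the rules for naming them were chosen with earlier results of these data known. Named by rule were the 10 sites of highest score, the 10 in the most Hnf4a lists, the best per Hnf4a list, the 3 widest, the 3 runs with the most sites (ties by summed score) and those next to the overlap limit. Genes and sequences would have needed mm9 references, not used here.

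All sites were kept, with no filter. Overlap means 1 bp or more, and a run has gaps of up to 10 kb. Wilson intervals are 95%. The overlap code was tested on simulated peaks. Alternatives were 50% overlap, centres within 200 bp, gaps of up to 500 bp, score filters, equal list length, run gaps of 5 and 20 kb, autosomes, dense blocks removed (chains of 5 or more 48-hour Hnf4a peaks with gaps up to 2 kb, and 10 kb around) and each Foxa list left out of the rule. Intervals came from SciPy 1.17.1, figures from matplotlib 3.10.9, and tables from pandas 2.3.3 and NumPy 2.4.6 under Python 3.11.15.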

Additional observations from a re-analysis of the deposited data

How the results depend on the processing

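In all 13 alternatives for the rule and lists, the share of 48-hour-only Foxa1 sites at iHep Hnf4a peaks of any line was below that of the other 48-hour Foxa1 peaks. Each alternative kept iHep Foxa lists in the rule, so this too is a description and no test. Of 152 values under alternatives, 121 stayed within 1.5 times (counts) or within the interval of the reported value. The number of sites was 398 in the upper 50% of the Foxa1 list by score, 2848 with the upper 50% of each other list, 857 with Foxa lists of 3435 peaks each, 3003 without the 48-hour Foxa2 list and 2565 without the iHep Foxa2 list. Median scores were then 23.1 (equal length), 15.5 and 14.5 (without either Foxa2 list), and median widths 465, 406 and 389 bp. In the upper 50% by score the share of sites at iHep Hnf4a was 0.251% (0.0444% to 1.41%) for the Foxa1 line. It was 0.503% (0.138% to 1.81%) for the Foxa2 line and the same for any line. These intervals include the reported 0.741%, 0.988% and 1.24%. At 48-hour Hnf4a of the Foxa2 and Foxa3 lines the share was 0% in the upper 50% by score and at equal length. For the Foxa3 line it was also 0% with the upper 50% of the other lists. The upper bounds were 0.956%, 0.446% and 0.135% in that order, above the reported 0.124%. Sites within 10 kb of another Foxa list were 21.4% in the upper 50% by score and 13.4% at equal length, against 34.3% and 21.0% of the other Foxa1 peaks. In the upper 50% by score 11.7% of all Foxa1 peaks, 8.73% of those of chromosome 3 and 16.2% of those of chromosome X were such sites. With gaps of up to 20 kb, 126 sites were in runs. No paired analysis was possible because each group has 1 library. Whether a deeper library would list Foxa at these sites was not tested, since read depth is unknown.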
